A study of Mus musculus with 12 samples.

Results

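A group of 67 protein-coding genes had a low point at day 2 in mouse embryonic stem (ES) cells and a higher level again at day 6. Levels are counts per 1000000 counts of a library (CPM). The genes were chosen by their measured CPM at days 0, 2 and 6. A gene belonged to the group if its mean was at least 5 CPM at day 0 and at day 6 and its day 2 mean was at most 0.5 times each of those means. Its highest day 2 library also had to lie below every day 0 and day 6 library. Of 9803 protein-coding genes with at least 5 CPM at days 0 and 6, 403 had a day 2 mean at most 0.5 times that of day 0, and 70 of these also met the limit against day 6. Setting 3 of the 70 aside by name, without describing them here, left 67, which is 0.684% of the 9803 genes. The table held 55335 genes, 21849 of them protein-coding.

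Polyadenylated RNA of mouse ES cells was sequenced at 4 time points (days 0, 2, 4 and 6) in 12 libraries, 3 for each. According to the labels all 4 groups shared 1 description of culture: knockout serum replacement medium with leukaemia inhibitory factor (LIF), on gelatin with irradiated mouse embryonic fibroblast feeders. No genotype, strain, treatment or change of medium is given for any day, so the handling that separates the days is not known here. The labels also do not say whether the 3 libraries of a day came from separate cultures. The p-values therefore reflect only how far the libraries of a day differ, and that spread may be technical.

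Naive mouse ES cells are kept in self-renewal by LIF, a cytokine that joins the LIF receptor to the shared subunit gp130 and activates JAK kinases and the transcription factor STAT3. When ES cells leave this state, genes of the pluripotency network fall while genes of epithelial, mesenchymal and lineage programmes come up, and some genes are used both before and after the transition. Immediate early genes such as Fos and Junb are known to follow growth factor and stress signals within minutes.

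Library totals ran from 6945900 to 13266962 counts, the lowest in replicate 3 of day 4 and the highest in replicate 1 of day 6. The labelled cell type was checked against 10 ES cell markers, all of which were detected. Their summed level was 4800 to 4929 CPM in the day 0 libraries, 2038 to 2071 at day 2, 1141 to 1172 at day 4 and 925 to 947 at day 6, so it was lower on each later day and had no low point at day 2. A list of 25 feeder fibroblast markers, 20 of them tested and none at 0 in all libraries, summed to 176 to 179 CPM at day 0, 260 to 266 at day 2, 395 to 407 at day 4 and 629 to 639 at day 6. Endoderm markers (12 genes) summed to 117 to 122, 749 to 797, 1105 to 1138 and 1004 to 1016 CPM on the 4 days, and neural markers (12 genes) to 105 to 107, 91.5 to 93.1, 125 to 128 and 138 to 152 CPM. Of these 4 sums, that of the neural markers was lowest at day 2, by a small step; their part in the results below was not tested. In RNA from whole cultures, fewer cells of a type and less RNA per cell cannot be told apart.

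The low point was deep in most of the 67 genes. The day 2 mean was 0.317 times the day 0 mean and 0.318 times the day 6 mean at the median, and day 2 means ran from 0.284 to 68.7 CPM. The group is mostly of modest abundance: 43 genes had a day 0 mean under 20 CPM and 38 had a day 2 mean under 5 CPM. B3gnt3, which encodes a glycosyltransferase that adds N-acetylglucosamine to glycans, had the deepest low point. It had 9.07, 9.53 and 7.34 CPM at day 0, 0.313, 0.163 and 0.378 at day 2, 2.595, 1.38 and 1.87 at day 4 and 7.39, 6.22 and 4.64 at day 6, and its day 2 mean was 0.0468 times the lower of its day 0 and day 6 means. Nearest to the limit of 0.5 on the inside were Thra at 0.488, Ddr1 at 0.494 and Pdgfa at 0.499, and nearest on the outside were Ephx1 at 0.501, Nrbp2 at 0.504 and Hbegf at 0.505. Day 2 against day 0 and day 6 against day 2 chose the genes and are described without a test. The median log2 fold changes of the 67 were -1.78 and 1.68. All 67 passed an adjusted p under 0.05 in edgeR's quasi-likelihood fit in both comparisons. The choice of genes had largely fixed this in advance, so it is no evidence about the group. Of all 16468 genes tested, 33.2% passed as lower at day 2 than at day 0. As higher at day 6 than at day 2, 32.4% passed. Of all genes tested, 9.26% were both lower at day 2 and higher again at day 6 by these calls.

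**Figure D1:**
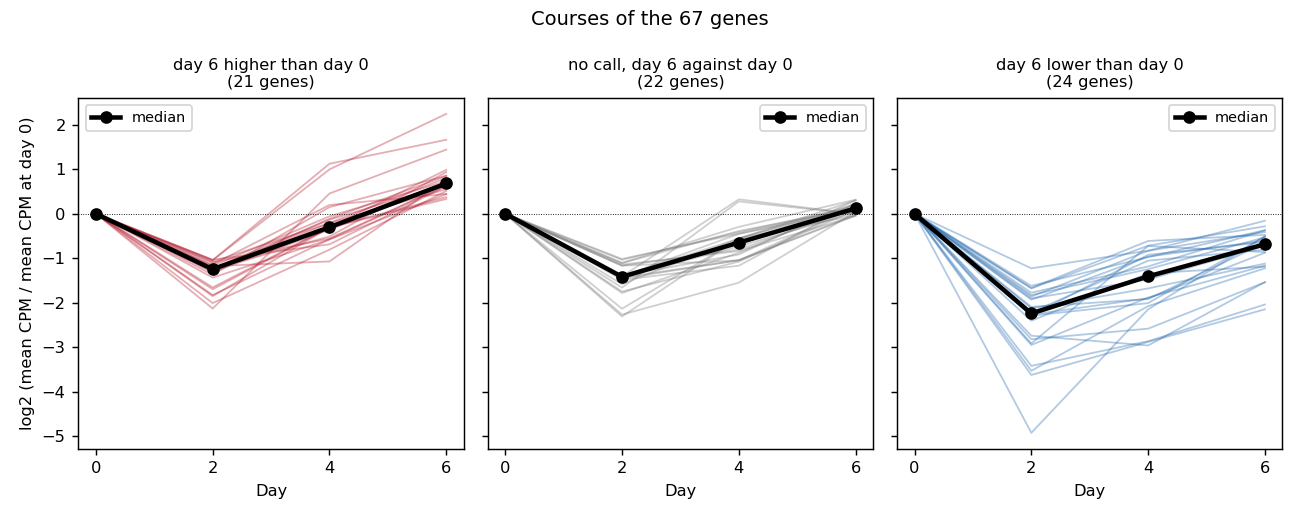
The log2 ratio of each gene's mean CPM to its day 0 mean is plotted against the day, with 1 line per gene and the median in black. The 21 genes called higher at day 6 than at day 0, the 22 with no call and the 24 called lower are all low at day 2 by choice, and the medians then climb through day 4 in each panel.

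The day 4 libraries were not used to choose the genes, and they fell between the low point and day 6. Of the 67 genes, 57 rose at day 4 against day 2, none fell and 10 did not pass, with a median log2 fold change of 0.87 (edgeR quasi-likelihood, Benjamini-Hochberg adjusted p under 0.05). Over all genes tested, 25.3% rose and 24.8% fell in this comparison and the median was 0.0016. At day 6 against day 4, 61 of the 67 rose, none fell and 6 did not pass, with a median of 0.81, where 23.6% of all genes rose, 19.3% fell and the median was 0.016. Both comparisons share the day 4 libraries, and each shares with the choice of genes the libraries of the day it sets day 4 against. In 57 genes every day 4 library lay above every day 2 library, and in 61 every day 4 library lay below every day 6 library. The choice of genes had set day 2 low and day 6 high. No share over all genes is given for these 2 counts, so they describe the 67 alone.

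The climb was gradual for most of the group. A total of 51 genes rose in both steps. The choice of genes had put day 6 well above day 2, so a gene with day 4 in between tends to rise in both. Of all genes tested, which carry no such condition, 9.34% rose in both steps, so the difference is no evidence about the group. At the median, day 4 had regained 36.0% of the gap between the day 2 and day 6 means, with quartiles of 21.8% and 50.3%. The share was under 25% in 18 genes, 25 to 50% in 31, 50 to 100% in 15 and at least 100% in 3. The 3 genes that reached or passed their day 6 mean by day 4 were Trank1 at 140.5%, Smarcd3 at 132% and Crabp1 at 113%.

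A total of 6 genes rose by day 4 and did not pass in the second step: Arhgap45, Crabp1, Gli1, Smarcd3, Spink2 and Trank1. Crabp1, a cytosolic carrier of retinoic acid, had 49.2, 46.3 and 47.4 CPM at day 0, 6.88, 6.18 and 5.85 at day 2, 29.7, 27.3 and 29.4 at day 4 and 27.5, 25.97 and 25.1 at day 6. All 3 day 4 libraries lay above all 3 day 2 libraries and below all 3 day 0 libraries, and the day 4 and day 6 libraries were close. The log2 fold change was 2.18 ± 0.10 (SE) at day 4 against day 2 and -0.10 ± 0.077 at day 6 against day 4 (edgeR adjusted p = 5.06e-21 and 0.291). Smarcd3, a subunit of SWI/SNF chromatin remodelling complexes, had 9.81, 10.02 and 9.83 CPM at day 0, 2.97, 3.66 and 2.74 at day 2, 13.1, 11.9 and 10.9 at day 4 and 9.27, 9.06 and 11.2 at day 6. Its day 4 libraries reached 10.9 to 13.1 CPM and overlapped those of day 6. Smarcd3 had, at day 6 against day 4, an adjusted p of 0.0615 in edgeR's fit, and it passed as lower without replicate 2 of day 2 (0.0353), replicate 3 of day 4 (0.0487) or replicate 3 of day 6 (0.0249), and under 5 other settings at 0.0335 to 0.0488. Of the exonic bases of Smarcd3, 48.2% are also exonic in Chpf2 on the opposite strand, which had 3.62 CPM at day 0, 15.3 at day 2, 26.4 at day 4 and 33.1 at day 6, and without strand information the reads of the 2 genes cannot be told apart there. Trank1 had 5.24 CPM at day 0, 1.97 at day 2, 6.55 at day 4 and 5.23 at day 6.

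The opposite order, no passing step to day 4 and a rise from day 4 to day 6, was seen in 10 genes: 4930539E08Rik, Cdh3, Cox4i2, Des, Esrp1, Hcn2, Hspb2, Jak3, Tmem130 and Trp53i11. Des, which encodes the muscle intermediate filament desmin, had 29.8, 31.6 and 26.3 CPM at day 0, 11.8, 13.4 and 13.5 at day 2, 13.97, 13.9 and 13.8 at day 4 and 48.8, 52.6 and 47.7 at day 6. The day 4 libraries lay just above those of day 2 and far below all others. Des regained 2.67% of its gap by day 4, and its log2 fold change at day 6 against day 4 was 1.86 ± 0.084 (SE, edgeR adjusted p = 1.29e-20), the highest of the 67. Hcn2, a hyperpolarisation-activated channel subunit, was the 1 gene with a lower mean at day 4 than at day 2, at 2.096 and 2.44 CPM. Trp53i11, a p53-induced gene, had 38.8 CPM at day 0, 17.3 at day 2, 18.8 at day 4 and 42.8 at day 6. Jak3 passed as higher at day 4 against day 2 without replicate 3 of day 2 (edgeR adjusted p = 0.0484) or replicate 3 of day 4 (0.0363), and Tmem130 without replicate 2 of day 4 (0.0293). With thinned counts both passed, at 0.0185 and 0.0333.

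**Figure D2:**
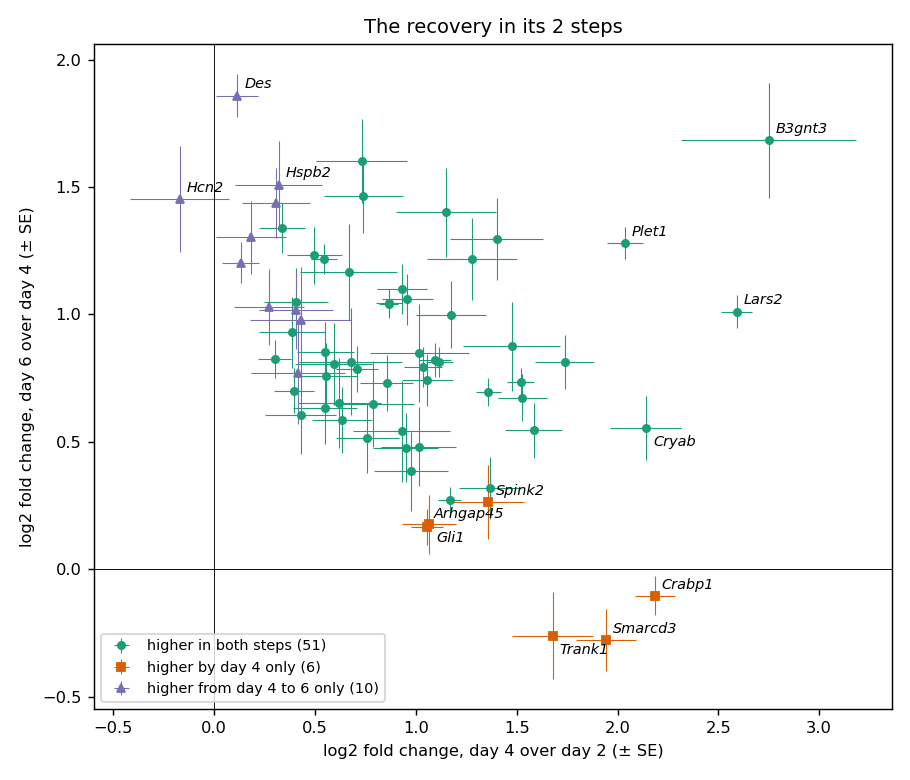
Each point is 1 of the 67 genes, with the fitted log2 fold change of day 4 over day 2 on the horizontal axis, that of day 6 over day 4 on the vertical axis and bars of 1 SE. The 51 genes that passed in both steps spread over the upper right, the 10 that passed from day 4 to day 6 alone lie near 0 on the horizontal axis, and the 6 that passed by day 4 alone lie near 0 on the vertical axis.

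The choice of genes used the libraries of days 0 and 6 and held both at no less than 2 times day 2, but put no order between them. Counts at day 6 against day 0 therefore describe the chosen genes and are not independent of the choice. By these calls 21 genes were higher at day 6 than at day 0, 24 were lower and 22 did not pass, against 39.4% higher and 37.5% lower among all genes tested. The median log2 fold change was -0.038, with a range of -2.23 to 2.14. TMM scaling moves every gene by 0.104 on the log2 scale in this comparison against library size alone, so that 33 genes were above 0 in the fit while 37 had a higher mean CPM at day 6. At day 4 against day 0, 58 genes were lower, 3 were higher and 6 did not pass, where 36.1% of all genes were lower and 37.5% higher. These 2 comparisons share the day 0 libraries, which the choice of genes had set high against day 2. The counts at day 4 against day 0 are therefore not independent of the choice either, and describe the chosen genes. Still lower at day 4 but higher at day 6 than at day 0 were 14 genes, lower on both days 24, and lower at day 4 with no call at day 6 were 20. No share over all genes tested is given for these joint calls, so they too describe the chosen genes alone.

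The 3 genes above day 0 on both later days were Plet1, Cryab and Lars2, and these were also the 3 with a day 6 mean at least 2 times the day 0 mean. Plet1, a surface protein of placental and epithelial progenitor cells (chr9:50494525-50505482 in GRCm38), had 19.5, 16.8 and 20.96 CPM at day 0, 9.31, 9.51 and 8.88 at day 2, 37.5, 35.7 and 41.03 at day 4 and 92.4, 88.7 and 90.2 at day 6. Every day 4 library was above every day 0 library, and the day 6 libraries were above all others. Plet1 had the highest log2 fold change at day 6 against day 0, 2.14 ± 0.072 (SE, edgeR adjusted p = 4.64e-26). At the other end, 8 genes had a day 6 mean at most 0.5 times the day 0 mean. Elavl3, a neuronal RNA-binding protein, had 22.7, 24.9 and 24.6 CPM at day 0, 2.66, 1.87 and 1.32 at day 2, 3.49, 2.26 and 4.03 at day 4 and 6.26, 6.001 and 4.01 at day 6. Pcolce, which enhances the cleavage of procollagen, had 52.7, 50.1 and 51.05 CPM at day 0, 4.54, 4.63 and 5.19 at day 2, 6.99, 6.496 and 7.63 at day 4 and 11.8, 12.4 and 13.2 at day 6. In both genes all day 6 libraries lay above all day 2 libraries, as the choice of genes required, and far below all day 0 libraries. The log2 fold change at day 6 against day 0 was -2.23 ± 0.14 in Elavl3 and -2.15 ± 0.082 in Pcolce (SE, edgeR adjusted p = 2.64e-17 and 2.08e-24).

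**Figure D3:**
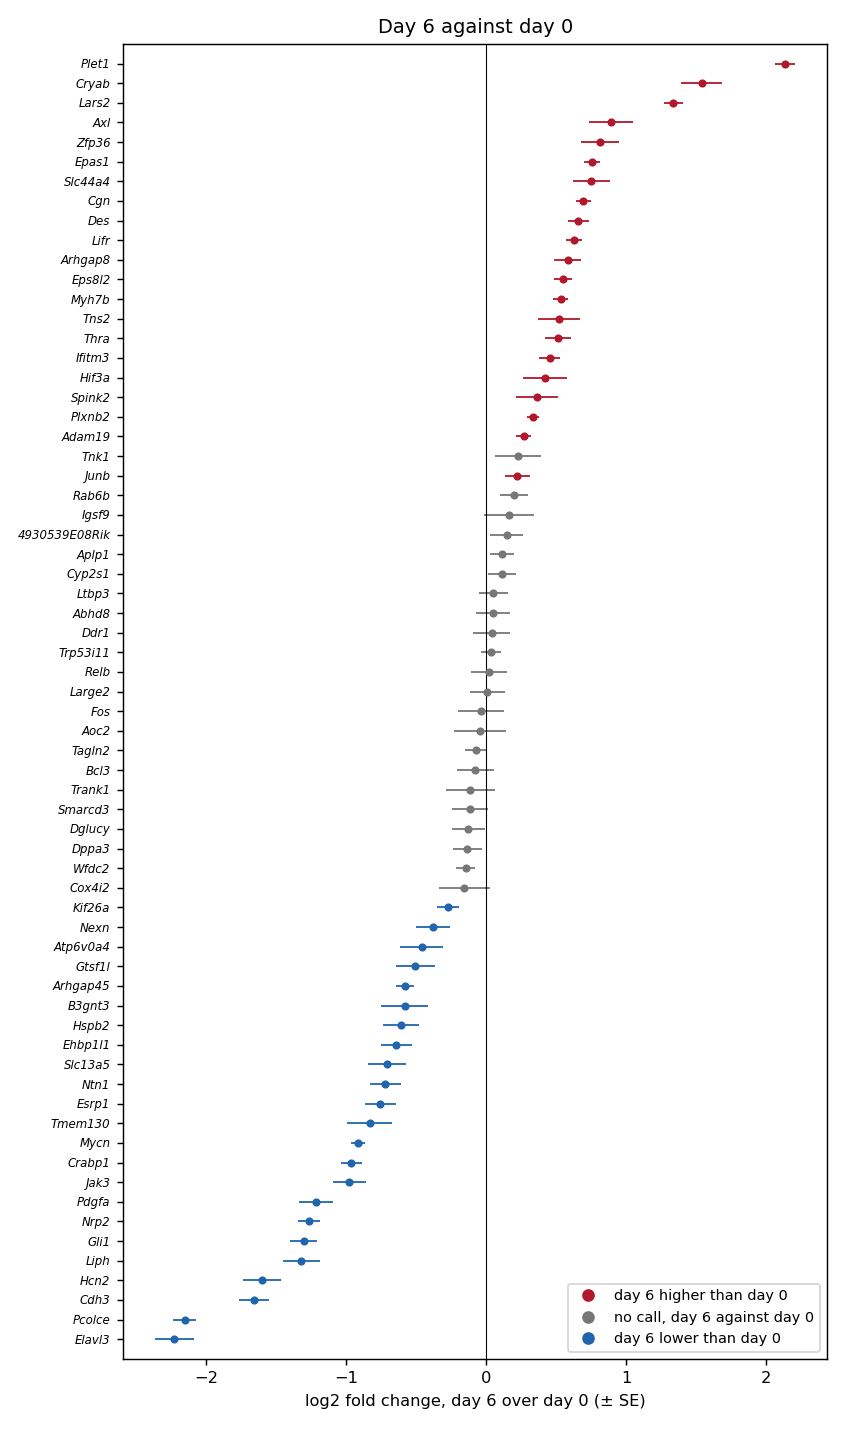
The fitted log2 fold change of day 6 over day 0 is drawn for 66 of the 67 genes with a bar of 1 SE, ordered by size and coloured by the call at an edgeR adjusted p under 0.05. Values run from 2.14 in Plet1 at the top to -2.23 in Elavl3 at the bottom, with 21 genes called higher, 22 not called and 23 of the 24 called lower.

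Lifr, the receptor subunit that binds LIF (chr15:7090614-7197489, + strand), had 62.7, 58.3 and 62.9 CPM at day 0, 28.1, 28.7 and 24.8 at day 2, 63.7, 56.8 and 56 at day 4 and 106, 100 and 99.9 at day 6. The day 2 libraries were the lowest, the day 4 libraries overlapped those of day 0, and the day 6 libraries lay above all others. For day 6 against day 0 the log2 fold change was 0.63 ± 0.058 (SE, edgeR adjusted p = 1.65e-12). For day 4 against day 0 it was -0.18 ± 0.063 (adjusted p = 0.00877), a call lost without replicate 2 of day 4 (0.0587) and with library size alone as scaling (0.425) or no filter (0.0738).

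Bcl3, an IκB family co-activator of NF-κB p50 and p52 and a known STAT3 target (chr7:19808462-19822770, - strand), had 10.2, 11.3 and 11.5 CPM at day 0, 2.03, 1.79 and 3.02 at day 2, 3.19, 4.04 and 4.03 at day 4 and 9.57, 13.3 and 11.1 at day 6. Its day 4 libraries stayed close to those of day 2, and its day 6 libraries overlapped those of day 0. By day 4 Bcl3 had regained 16.3% of its gap, and most of its climb came from day 4 to day 6, with a log2 fold change of 1.60 ± 0.17 (SE, edgeR adjusted p = 2.47e-10). Against day 0, day 6 was at -0.079 ± 0.13 (adjusted p = 0.59). Jak3, a kinase that serves cytokine receptors with the common gamma chain, had 14.6, 15.2 and 17.2 CPM at day 0, 2.89, 3.17 and 3.68 at day 2, 4.79, 4.33 and 3.46 at day 4 and 8.59, 8.29 and 8.65 at day 6. Its day 6 libraries lay between those of days 2 and 0.

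The list of LIF and STAT3 genes held 14 genes, all tested, of which Lifr, Bcl3 and Junb belong to the 67. Of the 14 genes, 9 were lower and 3 higher at day 2 against day 0 (median log2 fold change -1.17), where 33.2% of all genes tested were lower and 34.9% higher. At day 6 against day 2, 9 were higher and 3 lower. In all, 6 of the 14 were lower at day 2 and higher again at day 6, against 9.26% of all genes tested. Stat3 itself had the same shape at a smaller depth, with 110.0 CPM at day 0, 65.7 at day 2, 83.2 at day 4 and 126 at day 6. Il6st, which encodes gp130, had no low point, with 72.8 CPM at day 0, 79.6 at day 2, 106 at day 4 and 171 at day 6. Jak2 climbed on every day, with 12.8 CPM at day 0, 29.8 at day 2, 40.6 at day 4 and 53.1 at day 6. Pim1, another STAT3 target, had 82.7 CPM at day 0, 48.3 at day 2, 22.6 at day 4 and 25.7 at day 6. The lists used here were written with earlier results of these data known, so their counts describe the genes and test nothing.

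The immediate early genes of the group were Fos and Junb, subunits of the AP-1 transcription factor, and Zfp36, which binds AU-rich elements and speeds the decay of the messages that carry them. Their proximal promoters are shown because all 3 are textbook targets of signal-dependent factors. Their shared low point was fixed by the choice of genes. Each line is the 250 bases before the RefSeq start on the gene's strand in GRCm38.p6, at chr12:85473640-85473889 (+) for Fos, chr8:84978749-84978998 (-) for Junb and chr7:28379229-28379478 (-) for Zfp36. Capitals mark matches to a cAMP response element core (TGACGT) and a TATA box (TATAAA) in Fos, a CCAAT box in Junb and a CArG box, the SRF site, in Zfp36.
Fos: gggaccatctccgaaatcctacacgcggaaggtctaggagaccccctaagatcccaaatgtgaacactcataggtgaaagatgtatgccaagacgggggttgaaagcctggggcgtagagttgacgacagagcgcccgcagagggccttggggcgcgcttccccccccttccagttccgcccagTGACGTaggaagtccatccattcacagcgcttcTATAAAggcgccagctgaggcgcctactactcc
Junb: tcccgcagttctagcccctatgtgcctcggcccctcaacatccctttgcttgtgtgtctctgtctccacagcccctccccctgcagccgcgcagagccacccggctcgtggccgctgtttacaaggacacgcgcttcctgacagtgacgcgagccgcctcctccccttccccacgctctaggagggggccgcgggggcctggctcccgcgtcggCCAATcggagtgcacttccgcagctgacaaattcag
Zfp36: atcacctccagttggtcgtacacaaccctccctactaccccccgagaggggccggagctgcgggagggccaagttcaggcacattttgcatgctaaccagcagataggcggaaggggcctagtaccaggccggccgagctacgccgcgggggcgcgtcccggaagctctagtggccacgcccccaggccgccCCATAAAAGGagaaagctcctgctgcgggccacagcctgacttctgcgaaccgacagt
Counted from the start at 1, with no 0, the matches begin at -66 (TGACGT) and -33 (TATAAA) in Fos, at -36 (CCAAT) in Junb and at -58 (CArG) in Zfp36. Junb also has a TATAAA match that begins at 1, just past the bases shown. The CArG match shares its first base with a GC box match (GGGCGG) on the other strand. Both strands were searched. Bases more than 250 before the start were not searched, so a site with no match here, such as a CArG box in Fos or Junb, may lie further upstream. In windows from 250 bases before to 50 after the start, TGACGT was found in 7.64% of 27025 RefSeq promoters, TATAAA in 14.2%, CCAAT in 37.9% and the CArG box in 1.57%. The gene model of GENCODE M21 for Zfp36 starts further upstream, so this window lies inside it. That for Junb starts further downstream than the RefSeq start, at chr8:84978718.

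Fos had 6.22, 5.196 and 6.28 CPM at day 0, 2.11, 1.54 and 1.605 at day 2, 2.99, 2.66 and 2.73 at day 4 and 5.43, 6.22 and 7.18 at day 6. Junb had 18.03, 18.3 and 19.8 CPM at day 0, 5.16, 5.29 and 5.099 at day 2, 13.7, 14.9 and 16.7 at day 4 and 22.3, 23.6 and 24.7 at day 6. Zfp36 had 7.91, 6.804 and 5.57 CPM at day 0, 3.05, 2.28 and 3.21 at day 2, 5.39, 3.94 and 4.89 at day 4 and 12.1, 12.98 and 13.7 at day 6. All 3 were lowest at day 2, the day 4 libraries lay below all day 6 libraries, and the day 6 libraries overlapped those of day 0 in Fos and lay above them in Junb and Zfp36. Junb had regained 53.95% of its gap by day 4, against 23.04% in Fos and 18.8% in Zfp36.

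Zfp36 had, at day 6 against day 0, a log2 fold change of 0.81 ± 0.14 and Junb of 0.22 ± 0.090 (SE, edgeR adjusted p = 1.88e-06 and 0.0257), while Fos was at -0.038 ± 0.16 (adjusted p = 0.839). The Junb call was lost without replicate 1 or 2 of day 0 or replicate 3 of day 6, at adjusted p of 0.0922, 0.0756 and 0.0862, with DESeq2 (0.0994) and with upper-quartile factors (0.0664). At day 4 against day 2 Fos passed with a log2 fold change of 0.67 ± 0.24 (adjusted p = 0.0194), a call lost without replicate 2 or 3 of day 2 or replicate 1 of day 4 (0.066, 0.0577 and 0.0713) and with DESeq2 (0.0502). The list of immediate early genes and SRF targets held 27 tested genes, of which 12 were higher and 12 lower at day 2 against day 0, and at day 6 against day 2, 20 were higher and 3 lower, with 8 of 27 lower and then higher. Over all genes tested the shares were 34.9% higher and 33.2% lower, 32.4% higher and 31.2% lower, and 9.26% lower and then higher. Jun, another AP-1 subunit, had no low point, with 8.92 CPM at day 0, 26.6 at day 2, 38.7 at day 4 and 71.7 at day 6. Neither had Fosl2, with 4.03 CPM at day 0, 7.99 at day 2, 16.4 at day 4 and 37.3 at day 6. Dusp1, a phosphatase of MAP kinases, had the same shape at less depth, with 5.45 CPM at day 0, 3.198 at day 2, 3.796 at day 4 and 5.18 at day 6.

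**Figure D4:**
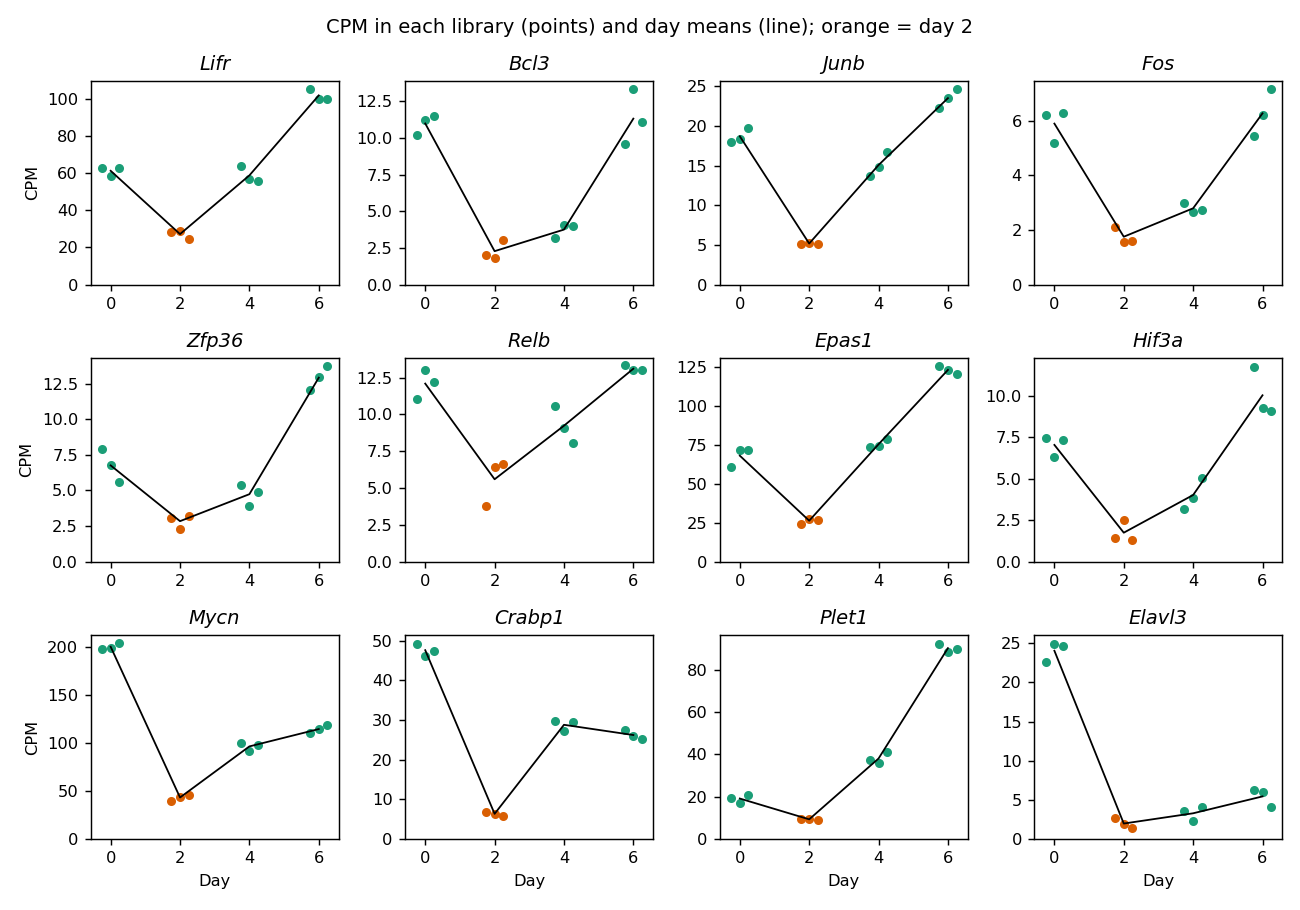
CPM in each library is plotted against the day for 12 of the genes, with 3 points per day, day 2 in orange, and a line through the day means; each panel has its own vertical axis from 0. Lifr, Epas1 and Plet1 pass their day 0 level by day 6, Bcl3 and Fos overlap it, and Mycn, Crabp1 and Elavl3 stay below it.

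Relb, the NF-κB subunit of the non-canonical pathway, had 11.1, 12.99 and 12.2 CPM at day 0, 3.75, 6.42 and 6.61 at day 2, 10.6, 9.05 and 8.06 at day 4 and 13.3, 12.98 and 12.98 at day 6. Replicate 1 of day 2 was the lowest, at 3.75 CPM, and the lowest day 6 libraries were level with the highest of day 0. The log2 fold change at day 6 against day 0 was 0.019 ± 0.13 (SE, edgeR adjusted p = 0.896). Its partner Nfkb2 had a shallower low point, with 33.4 CPM at day 0, 16.5 at day 2, 27.8 at day 4 and 31.6 at day 6. Ifitm3, a membrane protein that hinders virus entry and an early germ cell marker, had 28.7, 27.7 and 28.2 CPM at day 0, 11.8, 10.8 and 13.2 at day 2, 23.9, 25 and 24.04 at day 4 and 44.6, 37.6 and 41.6 at day 6. The day 6 libraries lay above all day 0 libraries, with a log2 fold change of 0.45 ± 0.076 (adjusted p = 1.47e-06). Of the same family, Ifitm1 had 7.09 CPM at day 0, 1.79 at day 2, 1.71 at day 4 and 1.91 at day 6. Ifitm2 had 112 CPM at day 0, 75.03 at day 2, 70.6 at day 4 and 66.1 at day 6. In the list of interferon and NF-κB genes, 23 were tested, 12 were lower and 6 higher at day 2 against day 0, and 8 were lower and then higher by day 6 (33.2%, 34.9% and 9.26% of all genes tested).

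Epas1 encodes HIF-2α, a transcription factor stabilised at low oxygen (chr17:86753700-86833410, + strand), and had 60.4, 71.6 and 71.8 CPM at day 0, 24.3, 27.5 and 27.01 at day 2, 73.3, 74.01 and 78.5 at day 4 and 125, 123 and 120.2 at day 6. The day 4 libraries were already above all those of day 0, and the day 6 libraries were the highest. Its log2 fold change at day 6 against day 0 was 0.76 ± 0.057 (SE, edgeR adjusted p = 5.98e-15), and at day 4 against day 0 it was 0.020 ± 0.061 (adjusted p = 0.773). With library size alone Epas1 passed as higher at day 4 against day 0 (log2 fold change 0.148, adjusted p = 0.0279), and without replicate 1 of day 0 or replicate 3 of day 4 the value was -0.061 and -0.008. Hif3a, a HIF family member with splice forms that inhibit the others, had 7.49, 6.31 and 7.34 CPM at day 0, 1.41, 2.52 and 1.32 at day 2, 3.19, 3.84 and 5.04 at day 4 and 11.8, 9.27 and 9.08 at day 6. All its day 6 libraries were above all day 0 libraries, at 0.42 ± 0.16 (adjusted p = 0.0143), a call lost without replicate 2 of day 0 (0.0755) or replicate 1 of day 6 (0.158) and with DESeq2 (0.0652).

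Cox4i2, the oxygen-responsive isoform of a cytochrome c oxidase subunit, had 5.89 ± 0.678 CPM at day 0, 2.18 ± 0.601 at day 2, 2.85 ± 0.814 at day 4 and 5.71 ± 1.197 at day 6 (mean ± SD, n = 3). None of the 38 tested genes of the glycolysis and hypoxia list is among the 67, while 27 were lower and 4 higher at day 2 against day 0, and 16 were lower and then higher by day 6 (33.2%, 34.9% and 9.26% of all genes tested). Ldha, which makes lactate, had 769 CPM at day 0, 348 at day 2, 636 at day 4 and 563 at day 6. Pfkl, a phosphofructokinase, had 325 CPM at day 0, 164 at day 2, 310.1 at day 4 and 327 at day 6. Their day 2 means were more than 0.5 times their day 6 means, so neither met the criteria. Hk1, the first enzyme of glycolysis, stayed low, with 252 CPM at day 0, 67.2 at day 2, 63.1 at day 4 and 61.1 at day 6.

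Transcription factors and chromatin genes of the group differed in how far they came back. Mycn, the Myc family member of embryonic cells (chr12:12936093-12941914, - strand), had 198, 199 and 204 CPM at day 0, 39.96, 43.2 and 46.2 at day 2, 99.8, 91.6 and 98.04 at day 4 and 110.2, 115 and 119 at day 6. The day 4 and day 6 libraries did not overlap, and both sets stayed below all day 0 libraries. Mycn regained 74.7% of its gap by day 4 and was at -0.91 ± 0.048 on the log2 scale at day 6 against day 0 (SE, edgeR adjusted p = 8.23e-20). Gli1, the transcription factor and target of Hedgehog signalling, had 28.6, 26.4 and 23.9 CPM at day 0, 4.69, 4.88 and 5.29 at day 2, 9.88, 10.4 and 10.8 at day 4 and 11.2, 12.1 and 11.3 at day 6. It rose by day 4 and was still low at day 6, at -1.30 ± 0.10 against day 0 (adjusted p = 3.47e-15). Of 13 tested genes of the Hedgehog list 1, Gli1, was lower and then higher (9.26% of all genes tested). Ptch1, the Hedgehog receptor, had 34.7 CPM at day 0, 62.9 at day 2, 63.6 at day 4 and 51.3 at day 6. Gli2, another Hedgehog transcription factor, had 46.6 CPM at day 0, 17 at day 2, 11.4 at day 4 and 13 at day 6.

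Thra, the thyroid hormone receptor alpha, had 24.8, 31.1 and 21.6 CPM at day 0, 13.6, 11.1 and 13.1 at day 2, 15.3, 15.1 and 17.7 at day 4 and 38.4, 41.6 and 38.7 at day 6. Its day 6 libraries lay above all others, at 0.51 ± 0.090 against day 0 (SE, edgeR adjusted p = 3.61e-06). Its rise at day 4 against day 2 (adjusted p = 0.0152) was lost without replicate 2 of day 2 (0.0769) or replicate 3 of day 4 (0.0822) and with thinned counts (0.0671). Dppa3, also called Stella, protects DNA methylation in the early embryo and marks naive ES cells and germ cells. It had 15.1, 15.6 and 14.8 CPM at day 0, 3.75, 3.01 and 3.59 at day 2, 11.1, 10.4 and 9.21 at day 4 and 15.2, 14.2 and 15.1 at day 6. All its day 4 libraries lay between those of days 2 and 6, and its day 6 libraries overlapped those of day 0, at -0.13 ± 0.10 (adjusted p = 0.228). Dppa3 was the 1 gene lower at day 2 and higher at day 6 among the 22 of the core and naive pluripotency list, in which 20 were lower and 2 higher at day 6 against day 2 (31.2% and 32.4% of all genes tested). Nanog had 258 CPM at day 0, 85.2 at day 2, 22.7 at day 4 and 8.74 at day 6 and Zfp42 had 857 CPM at day 0, 259 at day 2, 151 at day 4 and 113 at day 6.

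The genes that follow are grouped by known role, with their values seen. Cgn, the tight junction protein cingulin, had 75.3, 65.4 and 73.7 CPM at day 0, 33.5, 34.3 and 33.4 at day 2, 59.1, 58.8 and 67.7 at day 4 and 123, 128 and 123 at day 6. Its day 6 libraries lay above all day 0 libraries, with a log2 fold change of 0.69 ± 0.056 (SE, edgeR adjusted p = 4.34e-14). Eps8l2, a regulator of actin, and Arhgap8, a GTPase-activating protein, were also higher at day 6 than at day 0, at 0.55 ± 0.066 and 0.58 ± 0.10 (adjusted p = 1.30e-09 and 1.19e-06), as was the transporter Slc44a4 at 0.75 ± 0.13 (adjusted p = 2.98e-06).

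Esrp1, which directs epithelial splicing, and Cdh3, P-cadherin, stayed low until day 4. Esrp1 had 20.98, 17.9 and 15.8 CPM at day 0, 3.83, 4.15 and 4.82 at day 2, 4.69, 4.72 and 5.04 at day 4 and 12.1, 11.02 and 11.6 at day 6. Cdh3 had 27.8, 29.4 and 29.6 CPM at day 0, 4.38, 3.09 and 4.82 at day 2, 5.39, 4.92 and 4.17 at day 4 and 8.82, 10.4 and 10.7 at day 6. In both genes the day 4 libraries lay among or just above those of day 2, and the day 6 libraries lay between those of days 2 and 0. Against day 0, day 6 was at -0.76 ± 0.11 and -1.66 ± 0.10 (SE, edgeR adjusted p = 9.88e-08 and 1.98e-17). Liph, a lipase that makes lysophosphatidic acid, had 15.7 ± 1.14 CPM at day 0, 1.36 ± 0.256 at day 2, 3.73 ± 0.247 at day 4 and 6.73 ± 1.31 at day 6 (mean ± SD, n = 3). Atp6v0a4, a proton pump subunit, had 8.77 ± 0.131 CPM at day 0, 2.85 ± 0.591 at day 2, 4.46 ± 1.003 at day 4 and 6.79 ± 1.06 at day 6. Both were lower at day 6 than at day 0, the Atp6v0a4 call being lost without replicate 2 of day 6 (edgeR adjusted p = 0.0533). Ddr1, a receptor tyrosine kinase for collagen, had 10.5 ± 1.67 CPM at day 0, 5.21 ± 1.07 at day 2, 7.71 ± 1.16 at day 4 and 11.6 ± 0.154 at day 6 and did not pass at day 6 against day 0. Neither did Wfdc2, a secreted whey acidic protein family member, with 68.3 ± 2.03 CPM at day 0, 30.9 ± 3.55 at day 2, 38.2 ± 2.801 at day 4 and 66.2 ± 5.55 at day 6 (adjusted p = 0.0529). Wfdc2 passed as lower without replicate 2 or 3 of day 2 or replicate 1 of day 6, at 0.0217, 0.0323 and 0.00921. It also passed with the replicate block (0.0281), in the 6 libraries alone (0.0312) and with median-ratio or upper-quartile factors (0.0434 and 0.0159). Large2, a glycosyltransferase of dystroglycan, had 10.1 CPM at day 0, 4.49 at day 2, 5.76 at day 4 and 10.97 at day 6. Large2's rise at day 4 against day 2 (edgeR adjusted p = 0.0469) was lost with DESeq2 (0.11), limma-voom (0.0511) and library size alone (0.0515), among other settings. The kinase Tnk1 had 7.09 CPM at day 0, 3.29 at day 2, 5.77 at day 4 and 8.82 at day 6, and the protease inhibitor Spink2 had 5.98 CPM at day 0, 2.72 at day 2, 6.85 at day 4 and 8.14 at day 6. Spink2 was higher at day 6 than at day 0 (adjusted p = 0.0289), a call lost without replicate 1 or 2 of day 0 or replicate 1 of day 6 (0.12, 0.0563 and 0.187), with DESeq2 (0.111) and with upper-quartile factors (0.0519).

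The epithelial junction and keratin list held 31 tested genes, Esrp1 being its 1 gene of the 67. Of these, 15 were lower and 10 higher at day 2 against day 0, and 11 were lower and then higher by day 6 (33.2%, 34.9% and 9.26% of all genes tested). Jup, the junction protein plakoglobin, had 42.9 CPM at day 0, 21.97 at day 2, 33.9 at day 4 and 58.01 at day 6. Tjp3, a tight junction protein, had 41.7 CPM at day 0, 5.43 at day 2, 6.97 at day 4 and 10.6 at day 6. Keratins climbed on every day without a low point, as in Krt8 with 22.5 CPM at day 0, 72.04 at day 2, 147 at day 4 and 187 at day 6. Krt18 had 20.8 CPM at day 0, 57.9 at day 2, 155 at day 4 and 291 at day 6. Cdh1, E-cadherin, had its lowest mean at day 4, with 440.3 CPM at day 0, 256 at day 2, 190.3 at day 4 and 233 at day 6.

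Axon guidance gave 3 genes. Plxnb2, a receptor of class 4 semaphorins, was among the most abundant of the 67 and had 189, 190.3 and 178 CPM at day 0, 68.5, 69.5 and 67.99 at day 2, 130.4, 125 and 118 at day 4 and 253, 257 and 246 at day 6. Nrp2, a co-receptor of class 3 semaphorins and VEGF, had 43.8, 47.9 and 42.4 CPM at day 0, 6.1, 6.42 and 4.82 at day 2, 12.9, 11.2 and 12.2 at day 4 and 20.5, 18.7 and 20.5 at day 6. Ntn1, the guidance ligand netrin-1, had 15.6, 18.1 and 18.2 CPM at day 0, 3.83, 3.66 and 3.12 at day 2, 10.1, 8.76 and 8.49 at day 4 and 12.4, 10.5 and 10.6 at day 6. All day 6 libraries lay above all day 0 libraries in Plxnb2 and below them in Nrp2 and Ntn1. The log2 fold changes at day 6 against day 0 were 0.34 ± 0.043 in Plxnb2, -1.27 ± 0.081 in Nrp2 and -0.72 ± 0.11 in Ntn1 (SE, edgeR adjusted p = 8.27e-09, 3.98e-17 and 2.33e-07). Ntn1's rise at day 6 against day 4 (adjusted p = 0.0346) was lost without replicate 2 of day 2, replicate 2 or 3 of day 4 or replicate 1 of day 6, at 0.0531, 0.124, 0.0933 and 0.231. It was also lost with upper-quartile factors (0.0565), library size alone (0.0539), no filter (0.0753), DESeq2 (0.131), the 6 libraries alone (0.0582) and thinned counts (0.172). Of 37 tested genes of the axon guidance list, 19 were lower and 13 higher at day 2 against day 0, and 11 were lower and then higher (33.2%, 34.9% and 9.26% of all genes tested). Nrp1, the close relative of Nrp2, had no low point, with 0.807 CPM at day 0, 6.18 at day 2, 19.3 at day 4 and 27.1 at day 6.

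Neuronal genes of the group besides Elavl3 were Aplp1, an amyloid precursor-like protein, Igsf9, a cell adhesion protein of dendrites, Rab6b, a neuron-enriched Golgi GTPase, Hcn2, and Kif26a, a kinesin family member. Aplp1 had 28.7, 25.4 and 24.4 CPM at day 0, 7.43, 7.72 and 7.65 at day 2, 14.5, 16.1 and 12.1 at day 4 and 27.2, 32.95 and 32.1 at day 6, and its day 6 libraries overlapped those of day 0. Kif26a had 31.7 CPM at day 0, 13.5 at day 2, 17.8 at day 4 and 28.4 at day 6. Rab6b had 15.4 CPM at day 0, 5.82 at day 2, 8.13 at day 4 and 18.97 at day 6, and Igsf9 had 5.06 CPM at day 0, 1.69 at day 2, 3.44 at day 4 and 6.22 at day 6. Hcn2 had 15.6, 16.6 and 16.8 CPM at day 0, 2.03, 2.36 and 2.93 at day 2, 2.29, 2.26 and 1.73 at day 4 and 7.01, 4.801 and 5.07 at day 6, with day 4 as low as day 2. Hcn2 was at -1.60 ± 0.13 at day 6 against day 0 (SE, edgeR adjusted p = 1.16e-13). Tmem130 had 8.25 CPM at day 0, 2.202 at day 2, 2.96 at day 4 and 5.005 at day 6. The neuronal and synaptic list held 23 tested genes, 12 lower and 5 higher at day 2 against day 0, and 5 lower and then higher (33.2%, 34.9% and 9.26% of all genes tested).

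Cytoskeletal and small heat shock genes showed both orders of recovery. Myh7b, a myosin heavy chain, had 92.2, 84.1 and 87.9 CPM at day 0, 40.6, 41.1 and 41.8 at day 2, 59.98, 60.2 and 59.3 at day 4 and 128, 153 and 132 at day 6. The Myh7b day 6 libraries lay above all others, at 0.53 ± 0.055 against day 0 (SE, edgeR adjusted p = 3.08e-11). Tagln2, an actin-binding transgelin, had 28.3 ± 0.918 CPM at day 0, 10.5 ± 1.75 at day 2, 17 ± 0.509 at day 4 and 28.9 ± 1.26 at day 6 (mean ± SD, n = 3). Tns2, a focal adhesion tensin, had 6.07 ± 0.897 CPM at day 0, 1.71 ± 0.474 at day 2, 4.07 ± 0.162 at day 4 and 9.38 ± 0.602 at day 6. Nexn, an actin filament protein, had 12.7 CPM at day 0, 3.95 at day 2, 7.68 at day 4 and 10.4 at day 6. Arhgap45, another GTPase-activating protein, had 53.8 CPM at day 0, 16.9 at day 2, 35.1 at day 4 and 38.7 at day 6, and Ehbp1l1 had 15.98 CPM at day 0, 4.501 at day 2, 6.74 at day 4 and 11.1 at day 6.

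Cryab and Hspb2, small heat shock proteins, are neighbours on chromosome 9, transcribed in opposite directions and sharing 252 exonic bases. Cryab had 6.75, 6.43 and 4.74 CPM at day 0, 2.81, 3.903 and 1.98 at day 2, 14.9, 10.9 and 13.2 at day 4 and 17.03, 19.2 and 20.5 at day 6. Hspb2 had 19.1, 13.9 and 15.4 CPM at day 0, 2.97, 3.496 and 3.399 at day 2, 5.39, 3.44 and 3.17 at day 4 and 12.8, 9.82 and 11.3 at day 6. Cryab passed its day 0 level by day 4, while Hspb2 was still low at day 4 and lower at day 6 than at day 0. The log2 fold change at day 6 against day 0 was 1.54 ± 0.15 in Cryab and -0.61 ± 0.13 in Hspb2 (SE, edgeR adjusted p = 3.57e-11 and 6.21e-05). The exons they share make up 17.0% of Cryab's exonic bases and 30.2% of Hspb2's, where reads cannot be assigned without strand.

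Growth factor and matrix genes included Pdgfa, a ligand of the PDGF receptor, and Axl, the receptor kinase of Gas6. Pdgfa had 19.3, 18.3 and 17.5 CPM at day 0, 4.85, 3.74 and 4.06 at day 2, 6.89, 4.13 and 6.19 at day 4 and 9.04, 7.64 and 8.65 at day 6. The Pdgfa day 6 libraries stayed below all those of day 0. Its calls were at the edge: the rise at day 4 against day 2 (edgeR adjusted p = 0.0399) was lost without replicate 2 or 3 of day 2 or replicate 1 or 3 of day 4 (0.122, 0.0903, 0.336 and 0.111). It was also lost with no filter (0.0541), DESeq2 (0.0679), limma-voom (0.0762), the 6 libraries alone (0.0634) and thinned counts (0.0617). The rise at day 6 against day 4 was lost without replicate 2 of day 4 (0.0515). Axl had 4.96, 4.701 and 6.51 CPM at day 0, 1.64, 2.11 and 1.23 at day 2, 5.39, 4.23 and 3.46 at day 4 and 11.8, 10.4 and 9.81 at day 6. Its day 6 libraries lay above all others, at 0.89 ± 0.16 against day 0 (SE, adjusted p = 3.20e-06). Axl did not pass at day 4 against day 0 (adjusted p = 0.0585), and passed as lower without replicate 2 of day 0 (0.0385) or replicate 1 of day 4 (0.0198).

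Adam19, a membrane metalloprotease, had 96.3, 85.2 and 90.7 CPM at day 0, 29.9, 28.6 and 27.8 at day 2, 71.5, 77.95 and 71.1 at day 4 and 119, 112 and 122 at day 6, with the day 6 libraries above all others. Ltbp3, which binds latent TGF-β, had 15.4, 14.7 and 14.2 CPM at day 0, 5.396, 5.204 and 6.23 at day 2, 10.5, 10.3 and 9.21 at day 4 and 15.7, 15.7 and 18.3 at day 6. Its day 6 libraries lay just above those of day 0, and it did not pass in that comparison, at 0.051 ± 0.10 (SE, edgeR adjusted p = 0.655). Of 22 tested YAP and TEAD targets 4 were lower and then higher, Axl among them. Of 21 tested genes of TGF-β, activin and Nodal signalling 2 were, Ltbp3 among them (9.26% of all genes tested).

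Enzymes and transporters completed the group. Cyp2s1, a cytochrome P450, had 18.2, 16.2 and 20.96 CPM at day 0, 3.52, 4.07 and 3.59 at day 2, 10.8, 12.6 and 14.4 at day 4 and 21.9, 21.3 and 21.2 at day 6. Its day 6 libraries lay above all those of day 0, with a log2 fold change of 0.11 ± 0.10 (SE, edgeR adjusted p = 0.305). Slc13a5, a citrate transporter, had 10.02 CPM at day 0, 2.62 at day 2, 5.13 at day 4 and 6.59 at day 6. Dglucy, the mitochondrial D-glutamate cyclase, had 14.4 CPM at day 0, 5.22 at day 2, 6.96 at day 4 and 14.1 at day 6. The amine oxidase Aoc2 had 5.53 CPM at day 0, 2.08 at day 2, 4.04 at day 4 and 5.83 at day 6. The means of all 3 had regained part of the gap by day 4. Dglucy's rise at day 4 against day 2 (edgeR adjusted p = 0.0313) was lost with DESeq2 (0.0614) and thinned counts (0.0721). It was also lost without replicate 2 or 3 of day 2 (0.098 and 0.0788). Leaving out replicate 1, 2 or 3 of day 4 lost it as well (0.0545, 0.0676 and 0.0739). Slc13a5's rise at day 6 against day 4 (0.0415) was lost with DESeq2 (0.147) and no filter (0.109), among other settings. Aoc2's rise at day 6 against day 4 (0.0259) was lost with DESeq2 (0.0781) and thinned counts (0.079). Leaving out replicate 1 or 3 of day 4 or replicate 2 or 3 of day 6 lost it, at 0.141, 0.0569, 0.0648 and 0.0516. Abhd8 had 10.8 CPM at day 0, 5.24 at day 2, 8.07 at day 4 and 12.1 at day 6. Gtsf1l had 9.42 CPM at day 0, 2.59 at day 2, 5.29 at day 4 and 7.08 at day 6, and 4930539E08Rik had 12.3 CPM at day 0, 4.39 at day 2, 5.47 at day 4 and 14.5 at day 6.

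Lars2, the mitochondrial leucyl-tRNA synthetase (chr9:123366927-123462666, + strand), was the most abundant of the 67 and had 275, 297 and 278 CPM at day 0, 62.2, 67.5 and 64.2 at day 2, 425, 343 and 396 at day 4 and 801, 706 and 799 at day 6. The day 4 libraries already lay above all day 0 libraries, and the day 6 libraries were the highest. Lars2's log2 fold change at day 6 against day 0 was 1.34 ± 0.067 (SE, edgeR adjusted p = 7.44e-13). Its days ranked as those of Gm42418, a long non-coding gene model that overlaps a ribosomal RNA gene on chromosome 17, which had 14320 ± 164 CPM at day 0, 3318 ± 163 at day 2, 15430 ± 322 at day 4 and 28160 ± 1499 at day 6 (mean ± SD, n = 3). Lars2 had 1.98, 1.95, 2.51 and 2.73 counts per 100 counts of Gm42418 at days 0, 2, 4 and 6. The part of ribosomal RNA reads in the Lars2 counts was not tested. Without Gm42418, the gene models beside or over it, Lars2 and the mitochondrially encoded genes in the library totals, a setting chosen after the data were seen, 80 genes met the criteria, all 67 among them. Together these genes take their smallest share of counts at day 2, so leaving them out raises days 0 and 6 relative to day 2 in every gene, which moves the 67 further inside the limits. That all 67 were kept was thus fixed in advance, and the part of these genes in the low points was not tested.

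**Figure D5:**
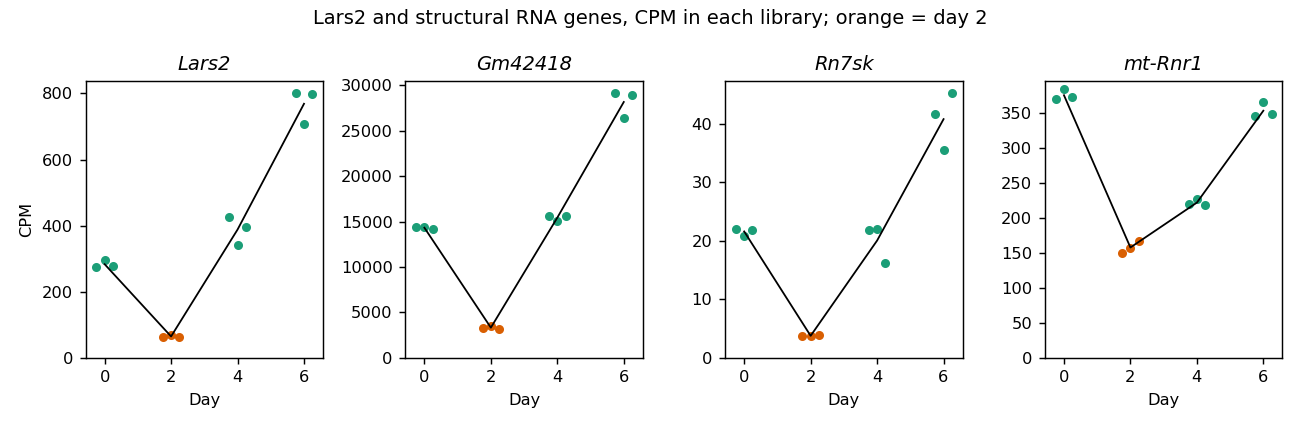
CPM in each library is plotted against the day for Lars2 and for 3 genes of structural RNAs, Gm42418, Rn7sk and mt-Rnr1, with 3 points per day, day 2 in orange and a line through the day means; each panel has its own vertical axis from 0. All 4 are lowest at day 2, at 64.6 CPM in Lars2, 3318 in Gm42418, 3.76 in Rn7sk and 158 in mt-Rnr1.

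Positions are given as a description, with no count expected for a group of this size. Within 100 kb of another of the 67 were 10 genes in 5 pairs: Igsf9 and Tagln2 on chromosome 1, Ehbp1l1 and Ltbp3 on 19, Axl and Cyp2s1 on 7, Jak3 and B3gnt3 on 8, and Hspb2 and Cryab on 9. No protein-coding gene lies between the partners in 4 of the pairs, and the gaps were 1168 bases for Igsf9 and Tagln2, 13769 for Axl and Cyp2s1 and 180 for Jak3 and B3gnt3. Of 358 other tested protein-coding genes within 100 kb of the 67, 17.0% were lower at day 2 and higher by day 6, against 9.81% of all 14179 protein-coding genes tested. Of these neighbours 45.5% were lower at day 2 against day 0, against 34.1% of all.

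The transcripts of the group were rich in G and C. The median GC content of the 67 genes was 54.7%, with quartiles of 51.9% and 57.9%, against 50% over all 14170 protein-coding genes tested with a value, with quartiles of 45.1% and 54.8%. With all these genes split into 5 equal groups from low to high GC content, the groups held 1, 6, 12, 19 and 29 of the 67. The same split over all these genes gave median log2 fold changes at day 2 against day 0 of 0.17, 0.11, 0.019, -0.056 and -0.13, and 6.14%, 6.95%, 9.49%, 11.7% and 14.8% of genes lower and then higher. The part of GC content in the result was not tested. With CPM centred within 20 bins of GC content, a setting chosen after the data were seen, 76 genes met the criteria, 66 of the 67 among them. Exonic length was similar, at medians of 4.48 kb and 4.36 kb, and genomic length was 18.9 kb in the group and 24.5 kb over all.

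Counts of 7 of the 67 genes are uncertain because at least 10% of their exonic bases also belong to another gene: Smarcd3, Pdgfa, Eps8l2, Plet1, Hspb2, Cryab and Tnk1. The overlapping partner of Pdgfa, Eps8l2 and Plet1 is a non-coding gene with at most 1.01 CPM on any day. Tnk1 shares 26.8% of its exonic bases with Plscr3 on the opposite strand, which had 8.14 CPM at day 0, 11.2 at day 2, 12.1 at day 4 and 12.5 at day 6. The limit of 10% takes no account of the partner's level, so counts under it may be uncertain too. Junb shares 7.52% of its exonic bases with Prdx2 on the opposite strand, at day means of 146 to 216 CPM. On the same strand Elavl3 shares 3.72% with Gm49318 (8.48 to 10.4 CPM) and Atp6v0a4 5.21% with D630045J12Rik (17 to 30 CPM).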

How the data were processed

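RNA was measured in 12 libraries, 3 per day. The deposited values are raw counts of reads per gene, made by the authors; the submitters' processing notes name the build mm10 and the tools featureCounts 2.0.1, HISAT2 2.1.0, DESeq2 and FastQC 0.11.7, without saying what each did. Per the labels' protocols, libraries came from total RNA with an mRNA kit. Strandedness, the handling of multi-mapping reads and the release of the annotation are not given in the sources used here. Gene IDs matched GENCODE M21 for 55154 of 55335 genes, which gave coordinates (GRCm38), and promoters come from RefSeq (GRCm38.p6).

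CPM is count divided by library total, times 1000000. Counts were fitted in R 4.3.3 with edgeR 4.0.16 (filterByExpr by day, TMM scaling, robust quasi-likelihood, all 12 libraries in 1 model), which left 16468 genes, a common coefficient of variation of 0.0415 and a median prior of 29.9 degrees of freedom. Tests were two-sided, p-values were adjusted by Benjamini-Hochberg over all genes tested, and under 0.05 counted as passing, in 6 comparisons of a later over an earlier day. SE come from the test statistic. CPM levels depend on transcript length, so they were compared within a gene. Libraries of the same day differed by more than counting error, with a chi-square over degrees of freedom of 1.51 to 3.80. The fit was also run on simulated counts with some genes changed at day 4 alone, and day 4 against day 0 was read. That run held no low point at day 2 and no choice of genes, so it does not bear on either. Figures were drawn with matplotlib 3.10.9.

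The genes and the 35 gene lists were chosen with earlier results of these data known. A naming rule took 45 of the 67 genes: the 12 deepest low points, the highest levels, the extremes of day 6 against day 0 and of the share regained at day 4, list genes, and the 3 nearest the limit. The other 22, and list genes outside the 67, were named with their values seen. Results of 1 of the 67 genes are not reported here on their own. Alternatives were median-ratio, upper-quartile or no scaling factors, other filters, DESeq2 1.42.0, limma-voom (limma 3.58.1), a replicate block, the 6 libraries of a comparison alone, thinning of counts to the smallest total, a threshold of 0.01, leaving out single libraries, and other limits for choosing genes. Promoter windows were found for 51 of the 67 genes (76.1%), under the 80% needed, so a count of motifs over the group would be void and is not given.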

Additional observations from a re-analysis of the deposited data

How the results depend on the processing

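The counts of genes that rose or fell kept within 1.5 times of the values reported under all alternatives but these. At day 6 against day 4, 1 gene, Smarcd3, passed as lower instead of 0 with upper-quartile factors, library size alone, limma-voom, the 6 libraries alone or thinned counts. The same held without replicate 2 of day 2, replicate 3 of day 4 or replicate 3 of day 6. At day 4 against day 0, 5 genes instead of 3 were higher with library size alone. Limits of 2/3 and 1/3 in place of 0.5 gave 218 and 18 genes, and minimum means of 1 and 10 CPM gave 147 and 41. CPM scaled by TMM gave 84 genes, 66 of the 67 among them, and dropping the demand on single libraries gave 67.

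With each library left out in turn, 51 to 57 genes rose and 0 fell at day 4 against day 2, 56 to 61 rose and 0 to 1 fell at day 6 against day 4, 3 were higher and 56 to 58 lower at day 4 against day 0, and 18 to 22 were higher and 23 to 25 lower at day 6 against day 0. Choosing the genes without single libraries gave 65 to 77. Of the values for single genes under alternatives, 6243 kept direction and side of the threshold, 128 lost it, 32 gained it and 29 changed sign without a call on either side.

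Same-numbered libraries showed no shared deviation: their deviations correlated at -0.038 to 0.034 over 18 pairs of days and numbers. Counting error can hide a small shared effect, so this does not settle whether they shared a culture or batch. With the replicate block, 57 genes rose at day 4 against day 2 and 61 at day 6 against day 4, with 0 lower in both, 3 were higher and 58 lower at day 4 against day 0, and 21 were higher and 25 lower at day 6 against day 0. Against day 0, library size alone moved all log2 fold changes by 0.13 at day 2, 0.13 at day 4 and 0.10 at day 6. Depth limits the genes of few counts, such as B3gnt3 at 0.284 CPM at day 2. The search of promoters on the gene's strand alone was not run, since the count of motifs was void.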

Other observations

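Genes outside the protein-coding class met the same limits in 16 cases, of 578 such genes with at least 5 CPM at days 0 and 6. Miat, a long non-coding RNA of the nervous system and heart, had 6.33, 8.78 and 7.46 CPM at day 0, 1.17, 1.22 and 1.04 at day 2, 7.78, 6.99 and 7.63 at day 4 and 17.5, 18.4 and 17.7 at day 6. Its day 2 libraries were far below all others and its day 6 libraries were the highest, with a log2 fold change of 1.15 ± 0.12 at day 6 against day 0 (SE, edgeR adjusted p = 2.97e-11).

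Several were structural RNAs. Rn7sk, the 7SK RNA that holds back the elongation factor P-TEFb, had 22.04, 20.9 and 21.9 CPM at day 0, 3.68, 3.74 and 3.87 at day 2, 21.9, 22.1 and 16.3 at day 4 and 41.7, 35.6 and 45.3 at day 6. Rn7s1, an RNA of the signal recognition particle, had 7.09 CPM at day 0, 2.298 at day 2, 6.29 at day 4 and 10.9 at day 6. Rn7s2 had 18.6 CPM at day 0, 5.67 at day 2, 17.2 at day 4 and 26.9 at day 6. The mitochondrial ribosomal RNA mt-Rnr1 had 375 CPM at day 0, 158 at day 2, 222 at day 4 and 353 at day 6. The nuclear ribosomal gene model CT010467.1 on chromosome 17 had 57.5 CPM at day 0, 19.5 at day 2, 36.1 at day 4 and 62.9 at day 6. Gm42418, which overlaps it on the other strand, had 14320 CPM at day 0, 3318 at day 2, 15430 at day 4 and 28160 at day 6. AY036118, which also overlaps it, had 15.02 CPM at day 0, 4.096 at day 2, 11.8 at day 4 and 21.3 at day 6. That all 7 were lower at day 2 than at days 0 and 6 was fixed by the limits. The day 4 mean of each was also above its day 2 mean. The rest were Gm24270, Mir6236, Gm47287, Gm47305, Gm24187 and Gm23935, annotated as miRNA genes, the long non-coding Gm15564, and the processed pseudogene Gm10163. Rn7s1 and Gm47287 had nearly the same counts, as did Rn7s2 and Gm47305, so these pairs are not independent. Gm10163 was the 1 gene of the 16 with a higher mean at day 4 than at day 6, 29.9 CPM at day 6 and 62.5 at day 4. The part of changes in structural RNA in the courses of the protein-coding genes was not tested.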
